A study of Oryza sativa Japonica Group with 6 samples.

Results

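The 9 circadian clock genes described here were chosen as a list of identifiers, with no threshold on their values, and all 9 were among the 42189 genes listed for each library. They are *OsLHY* (LOC_Os08g06110), *OsPRR73* (LOC_Os03g17570), *OsPRR37* (LOC_Os07g49460), *OsPRR95* (LOC_Os09g36220), *OsPRR59* (LOC_Os11g05930), *OsPRR1*, also called *TOC1* (LOC_Os02g40510), *OsGI* (LOC_Os01g08700), *OsELF3-1* (LOC_Os06g05060) and *OsLUX* (LOC_Os01g74020). Young panicles, collected before heading, were profiled by mRNA sequencing in 3 libraries of NIL-*hfr131* and 3 libraries of 187R, labelled as biological replicates of the mutant and the wild type. NIL-*hfr131* is a near-isogenic line that carries *hfr131*, an allele of the brassinosteroid receptor gene *OsBRI1* from the wild rice *Oryza longistaminata*, on an introgressed fragment of the long arm of chromosome 1. 187R is its recipient parent, an *indica* restorer line with the *HFR131* allele (the submitters' organism field names the japonica group). Both lines were grown under natural conditions. NIL-*hfr131* is 1 line, so effects of *hfr131* and of other wild-rice alleles on its fragment cannot be told apart. The labels give no hour at which the panicles were collected, and time of day was not tested. Levels are in TPM, a unit that corrects reads for gene length and sums to 1000000 in every library.

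In plants the circadian clock is a loop of regulators that repress one another in turn through the day. In rice leaves *OsLHY*, a MYB transcription factor, peaks around dawn. The pseudo-response regulators, known in *Arabidopsis* as repressors of *LHY* and *CCA1*, follow in sequence, with *OsPRR73* and *OsPRR37* early, *OsPRR95* and *OsPRR59* later and *OsPRR1* towards dusk. *OsGI* (GIGANTEA) is highest late in the day and acts upstream of the flowering gene *Hd1*, while *ELF3* and *LUX* form, in *Arabidopsis*, an evening complex that represses clock genes at night.

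Libraries were compared before the genes were read. NIL-*hfr131* replicate 3 stood apart, with Pearson correlations across genes of 0.916 to 0.937 with the other 5 libraries, whose lowest correlation with one another was 0.982. All 9 floral genes used as panicle markers were expressed in every library, from the stamen and lodicule gene *OsMADS16* (LOC_Os06g49840), the highest by its mean, to the carpel gene *DL* (LOC_Os03g11600), the lowest. *OsMADS16* was at 617 to 790 TPM in NIL-*hfr131* and 490 to 725 TPM in 187R, and *DL* at 67.3 to 85.4 TPM in NIL-*hfr131* and 65.5 to 87.0 TPM in 187R. None of the 9 passed an adjusted *P* of 0.05 (0.307% of all genes tested below) or an unadjusted *P* of 0.05 (8.36%, limma). The largest log2 fold changes were 0.35 for *OsMADS16* and 0.32 for *OsMADS3* (LOC_Os01g10504). The lines did not overlap in 2 of the 9 (18.5% of all genes tested). *OsMADS3* was higher in NIL-*hfr131*, at 98.3 to 136 TPM against 84.0 to 92.8 TPM. *OsMADS6* (LOC_Os02g45770) was lower, at 111 to 150 TPM against 153 to 166 TPM. Their summed level was 2486 to 2681 TPM in NIL-*hfr131* and 2296 to 2554 TPM in 187R. In bulk panicles, a lower level can come from fewer cells of a type or from less RNA per cell, and these cannot be told apart.

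The order of the 9 genes was nearly the same in all 6 libraries. *OsGI* was the highest, *OsPRR1* the fourth, *OsPRR95* the fifth and *OsLHY* the lowest in every library. Averaged over the 6 libraries, the levels were 321 TPM for *OsGI*, 107 TPM for *OsPRR73*, 79.1 TPM for *OsLUX*, 54.5 TPM for *OsPRR1*, 36.3 TPM for *OsPRR95*, 14.7 TPM for *OsPRR37*, 14.4 TPM for *OsELF3-1*, 12.5 TPM for *OsPRR59* and 7.66 TPM for *OsLHY*. *OsPRR73* and *OsLUX* exchanged places between libraries, and *OsELF3-1* was above *OsPRR37* in some libraries and below *OsPRR59* in others, so these neighbours did not differ in level beyond their spread. *OsPRR37* was above *OsPRR59* in every library. Thus the dawn gene had the lowest level of the 9 and *OsGI* the highest, in NIL-*hfr131* as in 187R.

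**Figure D1:**
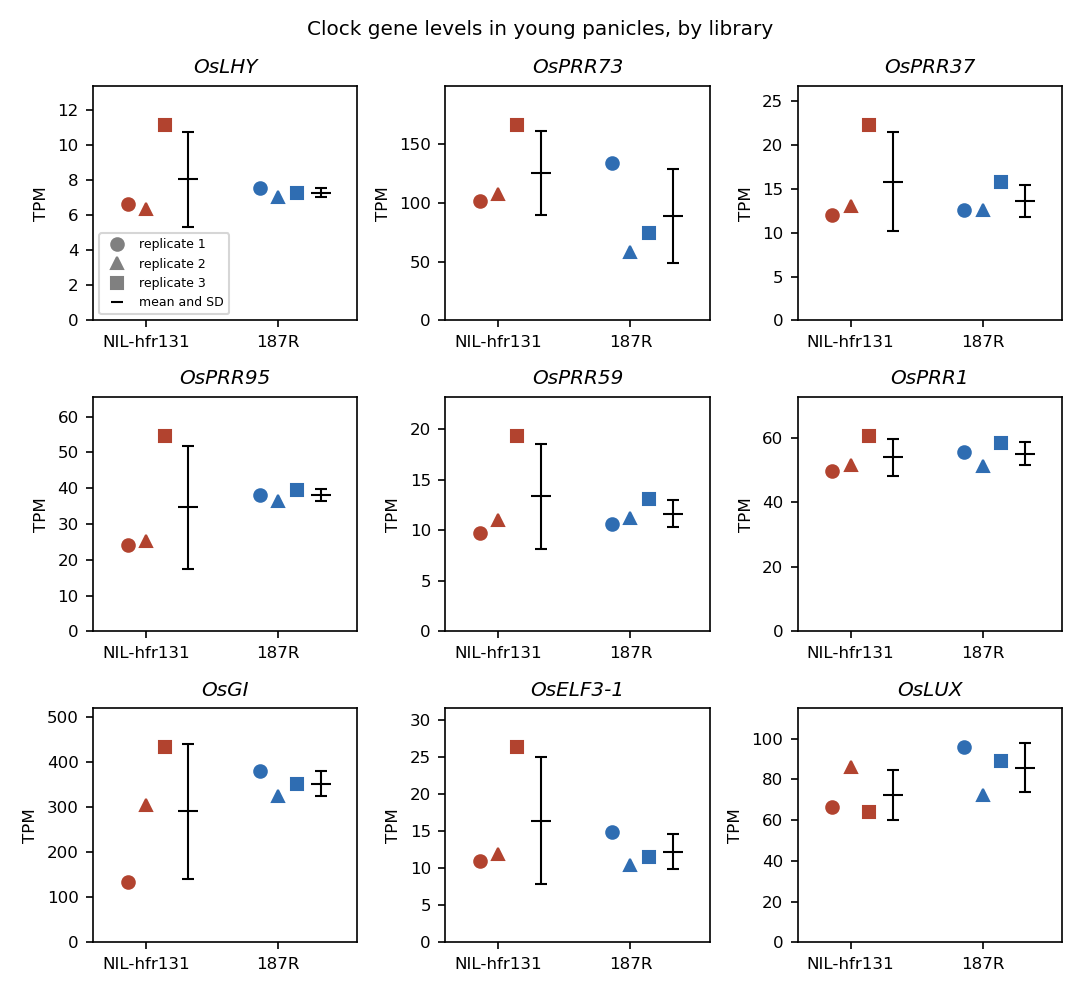
TPM of each clock gene (vertical axis, from 0) in the 3 NIL-*hfr131* libraries (red, left) and the 3 187R libraries (blue, right), with symbols for the replicate and black bars for the mean and SD of each line. NIL-*hfr131* replicate 3 (square) is the highest library in 8 of the 9 panels, and *OsGI* in NIL-*hfr131* replicate 1 (circle) is the lowest of its panel at 135 TPM.

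The levels in NIL-*hfr131* were then compared with those in 187R, to ask whether the clock genes differ with the *hfr131* allele. None of the 9 was called between the lines. The 21531 genes with a mean of at least 1 TPM, the 9 clock genes among them, were tested with limma on log2(TPM + 1), a scale that understates the change of weakly expressed genes, and *P* values were adjusted over all of them by the Benjamini-Hochberg method. At an adjusted *P* under 0.05, 0 of the 9 passed, where 0.307% of all tested genes did (66 genes). At an unadjusted *P* under 0.05, 0 of the 9 passed as well, where 8.36% of all tested genes did. The log2 fold changes (NIL-*hfr131* minus 187R) were positive in 5 clock genes and negative in 4, with a median of 0.09, compared with 0.05 over all tested genes. The ranges of the lines overlapped in all 9 clock genes, while they did not overlap in 18.5% of the tested genes. Failing this test does not mean that a level was equal in the lines. The 95% intervals of the log2 fold changes were wide, from -0.33 to 0.26 for *OsPRR1*, the narrowest, to -1.35 to 0.50 for *OsGI*, the widest.

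*OsLHY*, which in *Arabidopsis* represses evening genes in the morning, was at 6.63, 6.35 and 11.1 TPM in NIL-*hfr131* replicates 1, 2 and 3, against 7.56, 7.05 and 7.26 TPM in 187R replicates 1, 2 and 3. The 187R libraries lay close together, and the NIL-*hfr131* libraries lay on both sides of them. The log2 fold change of 0.09 had a standard error of 0.22 and an adjusted p of 0.871 by limma. Leaving out NIL-*hfr131* replicate 3 gave -0.15 (limma, adjusted p = 0.572).

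Among the pseudo-response regulators of the earlier day, *OsPRR73* had the largest positive fold change of the 9 genes. Its level was 101, 108 and 166 TPM in NIL-*hfr131*, against 134, 58.2 and 74.1 TPM in 187R. 187R replicate 1 was above NIL-*hfr131* replicates 1 and 2, so the lines overlapped, and the log2 fold change of 0.54 (standard error 0.33) did not pass the test (adjusted p = 0.694, limma). Without 187R replicate 1 the log2 fold change was 0.88 and the lines no longer overlapped, with an adjusted *P* of 0.775 (limma), within a range of 0.392 to 0.904 over the alternatives. The log2 fold change was 0.29 without 187R replicate 2 and 0.32 without NIL-*hfr131* replicate 3. *OsPRR73* also varied most within 187R, where the highest library was 2.31 times the lowest. Its SD of 0.61 on the log2 scale over the 187R libraries was larger than that of 99.0% of the tested genes.

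*OsPRR37*, a repressor of flowering under long days in rice, was at 12.1, 13.1 and 22.3 TPM in NIL-*hfr131*, against 12.6, 12.6 and 15.8 TPM in 187R. Its log2 fold change of 0.16 had a standard error of 0.24 and an adjusted p of 0.786 by limma. NIL-*hfr131* replicate 3 was the high library, and without it the log2 fold change was -0.10.

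The fold changes of the regulators of the later day differed in sign, and neither passed the test over all libraries. *OsPRR95* was at 24.2, 25.2 and 54.6 TPM in NIL-*hfr131*, against 38.1, 36.4 and 39.6 TPM in 187R, so that NIL-*hfr131* replicates 1 and 2 were below, and replicate 3 above, all 187R libraries. Over all libraries the log2 fold change of -0.23 had a standard error of 0.30 and an adjusted p of 0.753 by limma. With NIL-*hfr131* replicate 3 set aside, the value was -0.60 with a standard error of 0.0823 (limma, adjusted p = 0.0171, with a range of 0.0171 to 0.958 over the alternatives), and *OsPRR95* was then the 1 clock gene called, where 1.8% of the tested genes were. At an unadjusted *P* under 0.05, *OsGI* passed too, where 14.8% of the tested genes did. This call rests on 2 libraries of NIL-*hfr131* that differed by 0.06 on the log2 scale, and *OsPRR95* was not called in any fit that kept replicate 3.

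*OsPRR59* was at 9.77, 11.0 and 19.3 TPM in NIL-*hfr131*, against 10.6, 11.2 and 13.1 TPM in 187R. The log2 fold change was 0.13 with all libraries (standard error 0.25; adjusted p = 0.827, limma) and -0.15 without NIL-*hfr131* replicate 3. *OsPRR59* and *OsPRR37* ran closest to each other of all 36 pairs of clock genes, with a root mean square difference of 0.04 between their log2 profiles after each was centred on its own mean over the 6 libraries. The farthest pair of clock genes was *OsPRR73* and *OsGI*, with a difference of 0.66.

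*OsPRR1* (*TOC1*), the dusk member of the family, was the steadiest of the 9. It was at 49.7, 51.5 and 60.5 TPM in NIL-*hfr131*, against 55.6, 51.4 and 58.3 TPM in 187R. The highest of the 6 libraries was 1.22 times the lowest, compared with 1.49 to 3.21 times for the other 8 genes. Its log2 fold change of -0.03 had a standard error of 0.12 and an adjusted p of 0.916 by limma.

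*OsGI* had the widest spread across libraries, and the sign of its fold change depended on 1 library. Its level was 135, 305 and 433 TPM in NIL-*hfr131*, against 380, 325 and 350 TPM in 187R. Replicate 1 of NIL-*hfr131* was far below the rest, and the mean of the other 5 libraries was 2.66 times its level. The log2 difference between NIL-*hfr131* replicates 1 and 2 was -1.17, and only 74 of the 21531 tested genes differed more between these libraries. *OsGI* was the only clock gene whose log2 level in NIL-*hfr131* replicate 1 was over 1 away from the average of the remaining libraries, where 0.715% of the tested genes were that far away. Between the lines, limma gave a log2 fold change of -0.42 with a standard error of 0.39 and an adjusted p of 0.699. With NIL-*hfr131* replicate 1 set aside, the value was 0.0504, and with replicate 3 set aside it was -0.79.

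*OsELF3-1*, whose product is the scaffold of the evening complex in *Arabidopsis*, was at 11.0, 12.0 and 26.4 TPM in NIL-*hfr131*, against 14.9, 10.4 and 11.5 TPM in 187R. The log2 fold change of 0.30 had a standard error of 0.33 and an adjusted p of 0.717 by limma. Setting aside NIL-*hfr131* replicate 3, the high library, gave -0.073. *OsLUX*, the DNA-binding partner in that complex, was at 66.7, 86.3 and 64.2 TPM in NIL-*hfr131*, against 95.9, 72.5 and 88.9 TPM in 187R. Its log2 fold change of -0.25 had a standard error of 0.16 and an adjusted p of 0.694 by limma, and it remained negative, from -0.38 to -0.16, in the 6 fits that each omitted a library. *OsLUX* and *OsGI* are on chromosome 1 with *OsBRI1* (LOC_Os01g52050), with locus numbers that differ from its own by 21970 and -43350. Whether the introgressed fragment reaches either gene was not analysed here.

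**Figure D2:**
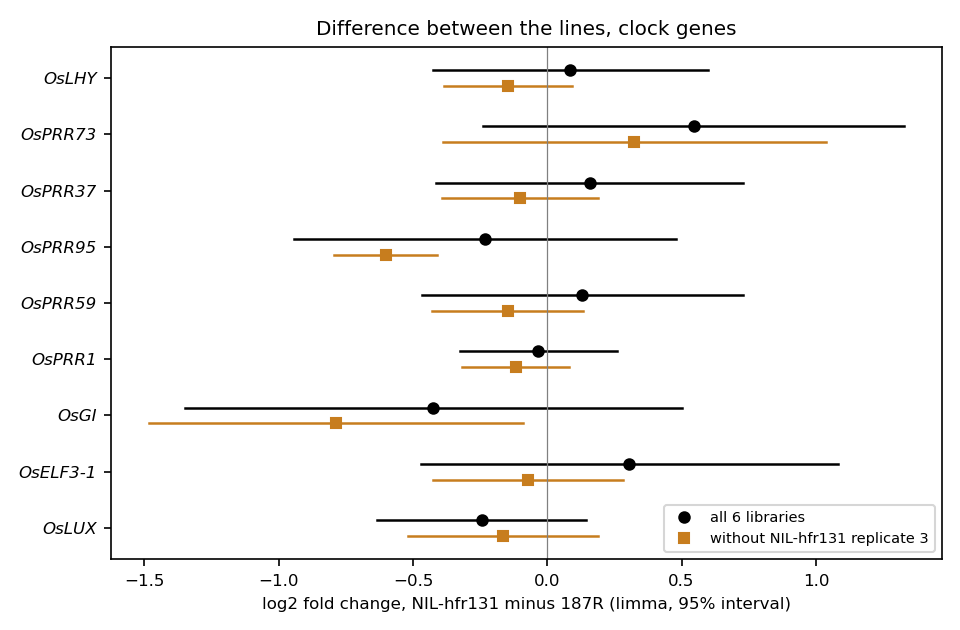
Log2 fold change (horizontal axis, NIL-*hfr131* minus 187R) of each clock gene with its 95% interval from limma, over all 6 libraries (black circles) and without NIL-*hfr131* replicate 3 (orange squares). With all libraries every interval includes 0, and without replicate 3 *OsPRR95* is at -0.60 and *OsGI* at -0.79.

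For every clock gene the difference between the line means on the log2 scale was smaller than the widest gap between libraries of the same line. That is, 0 of the 9 had a line difference larger than the range within both lines, where 8.49% of the tested genes did. The log2 range within NIL-*hfr131* was wider than that within 187R except in *OsPRR73*, though by little in *OsLUX* (0.42 against 0.40). NIL-*hfr131* replicate 3 stood apart over all genes, with 13.5% of the tested genes more than 1 from the mean of the other 5 libraries. The share of all tested genes with a wider range in NIL-*hfr131* was not computed, so this is not read as a trait of the clock genes. Without NIL-*hfr131* replicate 3, *OsLHY*, *OsPRR95* and *OsGI* no longer overlapped between the lines and were lower in NIL-*hfr131*. That is 3 of 9 clock genes, where 32.6% of the tested genes did not overlap and 19.6% were lower.

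Replicate 3 of NIL-*hfr131* was the high library for the clock genes, with the exception of *OsLUX*. This library had the highest of the 6 levels in 8 of the 9 clock genes, where 47.6% of all tested genes were highest in it. *OsLUX* had its lowest level in this library, where 27% of the tested genes had theirs. Against the mean of the other 5 libraries, the clock genes in NIL-*hfr131* replicate 3 had a median log2 difference of 0.72, compared with 0.16 over all tested genes. The difference was 1.09 for *OsELF3-1*, 0.86 for *OsPRR73*, 0.75 for *OsPRR95* and *OsPRR59*, 0.72 for *OsPRR37*, 0.62 for *OsGI*, 0.61 for *OsLHY*, 0.18 for *OsPRR1* and -0.34 for *OsLUX*. *OsELF3-1* was the only clock gene more than 1 apart, where 13.5% of the tested genes were. *OsPRR1* was thus close to the median of all genes in this library, and 7 clock genes were at 0.61 or more. In NIL-*hfr131* replicate 1, 5 of the 9 clock genes had their lowest level, where 21.4% of the tested genes did. No clock gene was more than 1 apart in NIL-*hfr131* replicate 2 (0.478% of the tested genes) or in 187R replicates 1, 2 and 3 (0.771%, 0.785% and 0.539%).

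The height of this library depended in part on its scaling. Median-of-ratios factors, which set the median gene of the libraries level, moved the median of all genes in NIL-*hfr131* replicate 3 to -0.01, and 6 of the 9 clock genes were then highest in it, where 38.0% of the tested genes were. With quantile normalization the count was 7 of 9, where 35.2% of the tested genes were. *OsPRR1* was not the highest in replicate 3 under either scaling, and *OsGI* was not under median-of-ratios factors. *OsLHY*, *OsPRR73*, *OsPRR37*, *OsPRR95*, *OsPRR59* and *OsELF3-1* were highest in replicate 3 under every scaling, and *OsLUX* was below the mean of the other 5 libraries under every scaling.

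**Figure D3:**
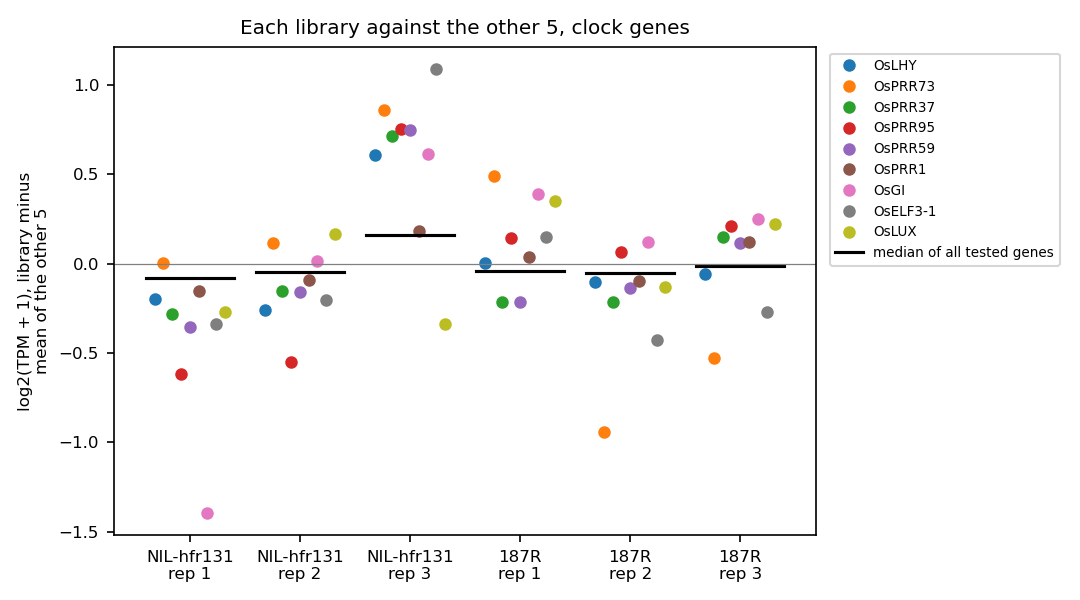
Log2(TPM + 1) of each clock gene in each library minus its mean over the other 5 libraries (vertical axis), with NIL-*hfr131* on the left and 187R on the right, and a black line for the median of all 21531 tested genes. In NIL-*hfr131* replicate 3, 7 clock genes lie between 0.61 and 1.09, *OsPRR1* lies beside the median of all genes at 0.16 and *OsLUX* lies below it at -0.34.

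Ratios of TPM values between clock genes within a library are not moved by multiplying all values of that library by a factor, so they were used to read each library by itself. Quantile normalization and the pseudocount do move ratios. The level of the dusk gene *OsPRR1* was 7.50, 8.11 and 5.43 times that of the dawn gene *OsLHY* in NIL-*hfr131* replicates 1, 2 and 3, against 7.36, 7.29 and 8.03 times in 187R. Dusk over dawn was thus between 7.29 and 8.11 in 5 libraries and lowest in NIL-*hfr131* replicate 3. On the log2(TPM + 1) scale the ratio of *OsLHY* to *OsPRR1* averaged -2.64 ± 0.26 in NIL-*hfr131* and -2.76 ± 0.08 in 187R (SD, n = 3 libraries per line), a difference of 0.12, smaller than the SD within NIL-*hfr131*. Under median-of-ratios scaling this difference was 0.12, and under quantile normalization 0.0988. No library had more *OsLHY* than *OsPRR1*.

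Other ratios singled out other libraries. The level of *OsGI* was 20.3, 48.1 and 38.9 times that of *OsLHY* in NIL-*hfr131*, against 50.3, 46.1 and 48.2 times in 187R, with NIL-*hfr131* replicate 1 the lowest. The ratio of *OsGI* to *OsLUX* was 2.02, 3.54 and 6.75 in NIL-*hfr131*, against 3.96, 4.49 and 3.94 in 187R, with NIL-*hfr131* replicate 1 the lowest and replicate 3 the highest. The ratio of *OsPRR73* to *OsPRR37* was 8.40, 8.25 and 7.47 in NIL-*hfr131*, against 10.7, 4.63 and 4.70 in 187R, where replicate 1 stood apart. On the log2(TPM + 1) scale, 5 of the 36 ratios between pairs of clock genes (13.9%) did not overlap between the lines, where 19.6% of the ratios between all pairs of tested genes did not. Of these 5 ratios, 3 held *OsPRR95*, which is part of 8 of the 36 pairs. Ratios that share a gene are not independent, so the 2 percentages do not show whether clock genes differ from genes in general. That difference was not tested.

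**Figure D4:**
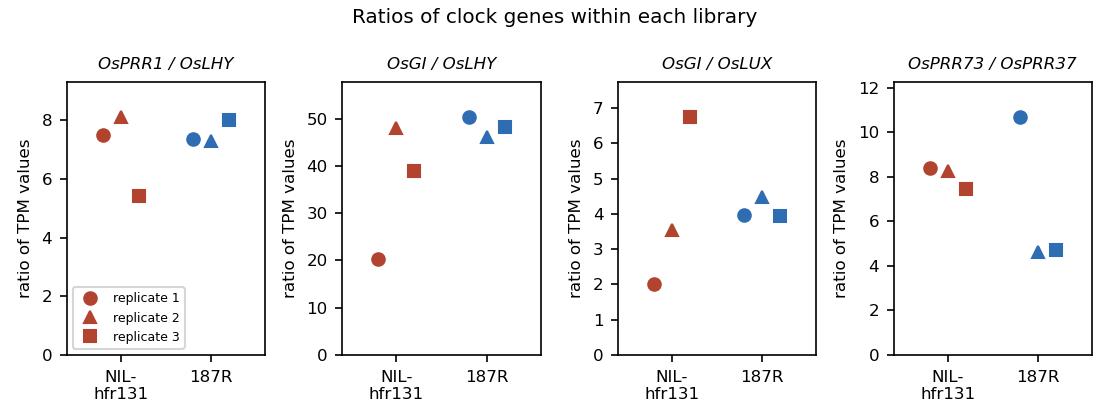
Ratios of TPM values of clock genes within each library (vertical axes, from 0) for NIL-*hfr131* (red, left) and 187R (blue, right), with symbols for the replicate. *OsGI* over *OsLHY* is lowest in NIL-*hfr131* replicate 1 at 20.3, *OsPRR1* over *OsLHY* is lowest in NIL-*hfr131* replicate 3 at 5.43, and *OsPRR73* over *OsPRR37* is highest in 187R replicate 1 at 10.7.

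Genes that work with the clock or are read out by it were read from lists of genes of known role. The 6 clock partners include *OsELF3-2*, the blue-light F-box genes of the *ZTL* and *FKF1* type, and the kinase genes *Hd6* and *Hd16*. Of the 6, 0 passed an adjusted *P* of 0.05 (0.307% of all tested genes) and 0 an unadjusted *P* of 0.05 (8.36%, limma). In 5 of the 6 the highest level was in NIL-*hfr131* replicate 3, where 47.6% of all tested genes had theirs. The largest fold change of the list was that of *OsZTL1* (LOC_Os06g47890), at 28.8, 25.8 and 69.2 TPM in NIL-*hfr131*, against 26.9, 31.4 and 24.7 TPM in 187R. Its log2 fold change was 0.42 and it was -0.01 without replicate 3. The next was that of *OsELF3-2* (LOC_Os01g38530), with a log2 fold change of 0.36, and 0.0831 without replicate 3. *OsFKF1* (LOC_Os11g34460) was the 1 partner of 6 whose lines did not overlap, where 18.5% of all tested genes did not. It was at 40.8 to 46.8 TPM in NIL-*hfr131* and 47.2 to 51.7 TPM in 187R (log2 fold change -0.18, adjusted p = 0.694, limma).

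Of the 8 genes of photoreceptors and light signalling, 0 passed either threshold (0.307% and 8.36% of all tested genes, limma). All 8 log2 fold changes were positive with a median of 0.27, compared with 0.05 over all tested genes. For 7 of the 8 the highest level was in NIL-*hfr131* replicate 3, where 47.6% of all tested genes had theirs. Without that library the median was -0.00446, compared with -0.03 over all tested genes. The largest were *OsCOP1* (LOC_Os02g53140), a regulator of protein degradation in the dark, with a log2 fold change of 0.48, and the phytochrome gene *OsPHYB* (LOC_Os03g19590), with 0.44. Without replicate 3 these were 0.0909 for *OsCOP1* and -0.0379 for *OsPHYB*. *OsPHYB* was at 17.3, 18.9 and 51.0 TPM in NIL-*hfr131*, against 18.9, 17.9 and 19.1 TPM in 187R.

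In the photoperiodic flowering pathway, which the clock governs in leaves, 7 of 13 genes were expressed highly enough to be tested. *Ehd1* (LOC_Os10g32600) and *Ghd7* (LOC_Os07g15770) were listed at 0 in every library, and the florigen gene *Hd3a* (LOC_Os06g06320) was under 1 TPM in every library. Of the 7 tested genes 0 passed an adjusted *P* of 0.05 (0.307% of all tested genes) or an unadjusted *P* of 0.05 (8.36%, limma). The lines did not overlap in 1 of the 7 (18.5%), and 2 fold changes were positive and 5 negative. The largest were *OsCOL4* (LOC_Os02g39710), a repressor of flowering, with a log2 fold change of -0.56, and *Ehd4* (LOC_Os03g02160), an activator of *Ehd1*, with 0.49. Without NIL-*hfr131* replicate 3 these were -0.22 for *OsCOL4* and 0.0369 for *Ehd4*. *OsCOL4* was at 99.6, 79.6 and 43.0 TPM in NIL-*hfr131*, against 97.9, 113 and 100 TPM in 187R. Its lowest level was in NIL-*hfr131* replicate 3, where 27% of the tested genes had theirs.

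Phytochrome-interacting factor-like genes (*OsPIL*) link light to growth. Of the 6 listed, 5 were found in the deposited values and 4 were tested. Of these, 0 passed an adjusted *P* of 0.05 (0.307% of all tested genes, limma). *OsPIL14* (LOC_Os07g05010) was at 5.29, 5.56 and 7.88 TPM in NIL-*hfr131*, against 3.84, 3.95 and 3.81 TPM in 187R, and was the 1 of the 4 tested genes whose lines did not overlap (18.5% of all tested genes) and that passed at an unadjusted *P* (8.36% of all tested genes; log2 fold change 0.56, standard error 0.18; unadjusted p = 0.0161, adjusted p = 0.462, limma). *OsPIL13* (LOC_Os03g56950), the next, had a log2 fold change of 0.12.

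Some markers of other tissues and stages differed between the lines, and their part in the clock levels was not tested. Of 12 genes of meiosis and anther development, 1 passed an adjusted *P* of 0.05 (limma), where 0.307% of all tested genes did. At an unadjusted *P* under 0.05, 3 of the 12 passed (8.36% of all tested genes), the lines did not overlap in 4 (18.5%), and 8 of the 12 log2 fold changes were negative, with a median of -0.09. The 1 gene that passed the adjusted threshold was *OsC6* (LOC_Os11g37280), a lipid transfer protein gene of the anther. It was at 1380, 1372 and 1211 TPM in NIL-*hfr131*, against 414, 440 and 509 TPM in 187R (log2 fold change 1.54, standard error 0.12, adjusted p = 0.00695, limma). The summed level of the 12 genes was 2874 to 3576 TPM in NIL-*hfr131* and 2267 to 2557 TPM in 187R, with no gene at 0. Without *OsC6* the sums of the other 11 genes overlapped, at 1663 to 2196 TPM in NIL-*hfr131* and 1853 to 2049 TPM in 187R. Most of these sums came from *CYP703A3* (LOC_Os08g03682) and *CYP704B2*. Apart from *OsC6*, the lines did not overlap in *GAMYB*, higher in NIL-*hfr131*, or in *PAIR2* and *TDR* (LOC_Os02g02820), both lower. *PAIR2* was at 13.2 to 19.1 TPM in NIL-*hfr131* and 20.1 to 21.2 TPM in 187R, and *TDR* at 155 to 190 TPM and 197 to 220 TPM. Of 5 genes of green tissue 1 passed (2 at an unadjusted *P*, with 3 positive and 2 negative fold changes), a gene of the Rubisco small subunit (LOC_Os12g19470), at 35.7, 30.2 and 26.9 TPM in NIL-*hfr131*, against 9.84, 8.81 and 9.67 TPM in 187R (log2 fold change 1.61, standard error 0.14; adjusted p = 0.0105, limma). Both calls were lost without NIL-*hfr131* replicate 2 and without any 1 of the 3 187R libraries. Small subunit genes are near-identical copies, so reads may have been split between them. The summed level of the 5 green tissue genes was 923 to 1439 TPM in NIL-*hfr131*, the lowest in replicate 3, and 1337 to 1443 TPM in 187R, with no gene at 0. Most of this sum was *CAB2R* (LOC_Os01g41710), at 735 TPM in NIL-*hfr131* replicate 3. In that library 3 of the 5 were lowest (27% of the tested genes), but *RCA* (LOC_Os11g47970) was highest. The lines did not overlap in 2 of the 5 (18.5%), LOC_Os12g19470 and *RCA*, which was at 79.8 to 101 TPM in NIL-*hfr131* and 64.4 to 69.4 TPM in 187R.

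Of 4 reference genes 0 passed either threshold (0.307% and 8.36% of all tested genes, limma). *OsUBQ5* (LOC_Os01g22490), a qPCR reference in the study, was at 644, 586 and 393 TPM in NIL-*hfr131*, against 612, 677 and 626 TPM in 187R, and *OsActin1* (LOC_Os03g50885) was at 932 to 976 TPM in NIL-*hfr131*, against 955 to 1064 TPM in 187R. Both genes had their lowest level in replicate 3 of NIL-*hfr131*, where 27% of the tested genes had theirs, and for both the ranges of the lines overlapped.

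The profiles most like those of the dawn and dusk genes were sought among the other 16112 tested genes with a mean of at least 5 TPM, by the smallest root mean square difference between centred log2 profiles over the 6 libraries. For *OsLHY* they were LOC_Os06g12160, LOC_Os02g48964 and LOC_Os03g26044, with differences of 0.0234 to 0.0270. For *OsPRR1* they were LOC_Os10g41960, LOC_Os05g43670 and LOC_Os03g18510, with differences of 0.0172 to 0.0237. LOC_Os06g12160 was at 7.04, 6.87 and 12.3 TPM in NIL-*hfr131*, against 8.04, 7.68 and 8.07 TPM in 187R, and was highest in NIL-*hfr131* replicate 3 like *OsLHY*. These profiles rest on 6 libraries, 1 of which stood apart.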

How the data were processed

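RNA was extracted from young panicles, and libraries were sequenced on an MGISEQ-2000 platform. The authors deposited TPM values per gene and library. Their methods name FPKM, but each deposited column summed to 1000000 and was used as TPM. The aligner, genome build and annotation are not given in the sources used here. TPM keeps no depth, so depth is unknown and the spread between replicates is the only error given. Libraries were grouped by the labels of their samples (*hfr131* or *HFR131*, mutant or wild type).

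Genes with a mean of at least 1 TPM were kept (21531 genes), and log2(TPM + 1) was compared between the lines with limma 3.58.1 in R 4.3.3 (line as the only term, prior variance following the mean level, two-sided), with Benjamini-Hochberg adjustment over all tested genes. The fit was tested on simulated data. Tables were handled in Python 3.11.15 (pandas 2.3.3, numpy 2.4.6), and plots were drawn with matplotlib 3.10.9. The comparison was repeated with 0.1 as pseudocount, without the filter, with a higher filter (mean of 5 TPM), after scaling by median-of-ratios factors or by quantiles, with a prior variance held constant, with the replicate number as a block, and with each library left out in turn. The genes named are the 9 clock genes and, per list, the called genes or otherwise the pair with the largest absolute fold change, and for the panicle markers the highest and lowest. Further genes were named after their values were seen, as were the ratios other than *OsLHY* to *OsPRR1*. These genes are those listed at 0, *OsFKF1*, *OsMADS3*, *OsMADS6*, *Hd3a*, *GAMYB*, and the genes with profiles like *OsGI* and *OsPRR73*. Also named in this way were *MEL1*, *PAIR2*, *ZEP1*, *TIP2*, *TDR*, *CYP703A3*, *CYP704B2*, *CAB2R* and *RCA*. The clock genes and the lists were chosen with earlier results of these data known. The files hold identifiers only and none matched the RefSeq gene table, so names rest on general knowledge of these identifiers. Of the 9 clock gene names, 6 were found in that table, on the chromosome the identifier gives. No sequences or positions are given. The values of 1 gene of the flowering list are not reported here. Reads shared between near-identical copies were not analysed.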

Additional observations from a re-analysis of the deposited data

How the results depend on the processing

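Over 13 alternatives for each of the 9 clock genes, 109 of 117 fold changes kept their direction and their side of the adjusted threshold. Of the rest, 7 changed sign and 1 passed the threshold, all in fits that left out a library. Changing the filter, holding the prior constant or adding the replicate block leaves a fold change itself unaltered, so no direction could change in those fits. Leaving out each library in turn gave log2 fold changes of -0.15 to 0.22 for *OsLHY*, -0.12 to 0.0206 for *OsPRR1*, -0.10 to 0.31 for *OsPRR37*, -0.15 to 0.31 for *OsPRR59*, -0.60 to -0.0315 for *OsPRR95*, -0.79 to 0.0504 for *OsGI*, -0.073 to 0.52 for *OsELF3-1*, 0.29 to 0.88 for *OsPRR73* and -0.38 to -0.16 for *OsLUX*. The sign of *OsLHY*, *OsPRR37*, *OsPRR59* and *OsELF3-1* changed without NIL-*hfr131* replicate 3, that of *OsGI* and *OsPRR1* without NIL-*hfr131* replicate 1, and that of *OsPRR1* also without 187R replicate 3. The number of clock genes called was 0 to 1 in these fits, and the number whose lines did not overlap was 0 to 3. The 3 were *OsLHY*, *OsPRR95* and *OsGI*, lower in NIL-*hfr131* without its replicate 3, where 32.6% of the tested genes did not overlap.

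Over all tested genes the 66 calls became 13 to 384 when a library was left out (384 without NIL-*hfr131* replicate 3), and the calls of the green tissue and anther lists became 0 to 1 each. With the replicate number as a block there were 16 calls, with 0 clock genes, 0 green tissue genes and 0 anther genes, and no clock gene changed its call. The deviations of same-numbered libraries from their line means had correlations of -0.21, 0.06 and 0.09 for numbers 1, 2 and 3. The highest correlation was 0.32, between NIL-*hfr131* replicate 1 and 187R replicate 2. Deviations from a mean of 3 libraries are tied to one another, so these values cannot decide whether same-numbered libraries were collected together. The labels give only the number. The number of clock genes more than 1 apart in NIL-*hfr131* replicate 3 was 0 under both other scalings (median-of-ratios factors, then quantiles), where the level of *OsELF3-1* was 0.91 and 0.81 above the mean of the other libraries. The counts of genes highest in that library under other scalings were chosen after seeing the data. Depth is unknown, and 3 libraries per line limit what can be called.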

Other observations

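The genes whose profiles lay nearest to those of *OsGI* and *OsPRR73* were looked up after the values of these clock genes were seen, with the same measure over the 6 libraries. For *OsGI* the nearest was LOC_Os06g20400, with a root mean square difference of 0.0853. It was at 3.77, 11.0 and 15.5 TPM in NIL-*hfr131* replicates 1, 2 and 3, against 11.7, 11.7 and 11.5 TPM in 187R, so that it was low in the same library as *OsGI*. LOC_Os01g42630 and LOC_Os07g19560 came next, and both were lowest in NIL-*hfr131* replicate 1, at 7.96 and 7.86 TPM. For *OsPRR73* the nearest was LOC_Os01g43520, with a difference of 0.14. It was at 32.5, 32.4 and 68.8 TPM in NIL-*hfr131*, against 46.0, 19.8 and 23.4 TPM in 187R, where replicate 1 was high as for *OsPRR73*. These genes were picked for their likeness from 16112 genes, which is a description and no test.

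*GAMYB* (LOC_Os01g59660), a regulator of anther development, was also high in 187R replicate 1. It was at 18.6, 19.0 and 25.1 TPM in NIL-*hfr131*, against 17.9, 9.86 and 8.77 TPM in 187R. The log2 fold change of 0.78 had a standard error of 0.27 and an adjusted p of 0.504 by limma, and the lines did not overlap. It was named after its values were seen.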
